A study of Homo sapiens with 6 samples.

Results

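The genes described here are 9 genes of antigen presentation by major histocompatibility complex (MHC) class I: the heavy chain genes HLA-B, HLA-C and HLA-E, the light chain gene B2M, the peptide transporter genes TAP1 and TAP2, the tapasin gene TAPBP, and the immunoproteasome subunit genes PSMB8 and PSMB9. They were chosen by symbol, through the probe annotation of the array. All 9 were found, with 18 probes among 47323, and all 9 were among the 14626 features tested. Transcripts were measured on Illumina bead arrays in BCP1, BCBL1 and BC1, human cell lines of primary effusion lymphoma, a B cell lymphoma of the body cavities that carries Kaposi sarcoma-associated herpesvirus. Each line gave 1 array with vehicle and 1 with 3-AP (triapine), an inhibitor of ribonucleotide reductase, at 2.5 µM for 48 h, so that there were 6 arrays and 3 pairs. The number of arrays limits the precision, and the labels do not say that arrays came from separate cultures. BC1 stood apart: deviations from the group means correlated at 0.58 and 0.59 between BCP1 and BCBL1 arrays of opposite agent, and at -0.78 to -0.73 with BC1. Each group mean was taken over the 3 lines with the same agent, so deviations cancel and correlations between different lines lean negative by construction. The cells grew in RPMI medium with fetal bovine serum and were used at low passage.

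Class I molecules show peptides from inside the cell to cytotoxic T cells. The proteasome cuts proteins into peptides, and immune cells can replace its constitutive catalytic subunits with PSMB8, PSMB9 and PSMB10. The transporter TAP1/TAP2 moves the peptides into the endoplasmic reticulum, where tapasin holds TAP beside an empty heavy chain and B2M until a peptide binds. Interferons and NF-kB induce these genes in many cell types. In cells that carry Kaposi sarcoma-associated herpesvirus, viral ubiquitin ligases can remove class I molecules from the cell surface, a step after transcription that an array does not measure.

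The start regions of these genes are shown because 8 of the 9 genes matched the RefSeq promoter table (GRCh38.p14, all sequences here) and because several moved alike between the lines. The window searched ran from 250 bases before to 50 after the start, on both strands. Printed are the 200 bases before the start, on the strand of the gene, with capitals for matches to the interferon-stimulated response element core (GAAA, any 2 bases, GAAA), the interferon-gamma activated site (TTC, any 3 bases, GAA) and the kB motif (GGG, any 2 bases, TT, any base, CC), which may overlap.
HLA-B (chr6:31357180-31357379, minus strand): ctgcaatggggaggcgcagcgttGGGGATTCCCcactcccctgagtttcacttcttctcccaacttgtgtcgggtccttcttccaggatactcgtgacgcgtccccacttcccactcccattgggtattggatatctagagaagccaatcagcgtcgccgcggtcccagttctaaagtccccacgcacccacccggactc
HLA-C (chr6:31272093-31272292, minus strand): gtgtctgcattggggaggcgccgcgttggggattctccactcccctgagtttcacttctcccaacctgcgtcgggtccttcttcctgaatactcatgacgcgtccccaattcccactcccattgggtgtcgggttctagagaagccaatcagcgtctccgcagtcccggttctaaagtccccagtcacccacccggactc
B2M (chr15:44711317-44711516, plus strand): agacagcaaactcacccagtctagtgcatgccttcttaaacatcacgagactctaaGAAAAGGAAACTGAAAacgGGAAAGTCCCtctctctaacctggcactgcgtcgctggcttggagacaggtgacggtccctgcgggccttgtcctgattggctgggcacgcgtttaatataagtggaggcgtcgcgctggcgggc
TAP1 (chr6:32853705-32853904, minus strand): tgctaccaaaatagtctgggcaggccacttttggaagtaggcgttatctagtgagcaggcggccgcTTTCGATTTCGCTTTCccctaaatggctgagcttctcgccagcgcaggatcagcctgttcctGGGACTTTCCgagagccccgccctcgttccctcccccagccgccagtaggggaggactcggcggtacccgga
TAPBP (chr6:33314079-33314278, minus strand): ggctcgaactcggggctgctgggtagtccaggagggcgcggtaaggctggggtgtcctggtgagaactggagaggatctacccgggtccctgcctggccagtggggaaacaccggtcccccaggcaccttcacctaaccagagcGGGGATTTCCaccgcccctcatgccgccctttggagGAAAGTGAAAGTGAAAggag
PSMB9 (chr6:32853992-32854191, plus strand): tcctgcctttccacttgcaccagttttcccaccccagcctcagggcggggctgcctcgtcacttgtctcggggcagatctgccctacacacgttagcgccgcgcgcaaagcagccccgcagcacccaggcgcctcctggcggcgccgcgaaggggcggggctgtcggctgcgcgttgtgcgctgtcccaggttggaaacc

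B2M, TAP1 and TAPBP each held the interferon element core and a kB match, a combination found in 0.179% of 35116 promoter windows of the same length. The interferon element core was found in 4 of the 8 windows, the same 3 and TAP2, and in 3.57% of all windows. The kB motif was found in 4, HLA-B and the same 3, and in 5.68% of all windows. In TAPBP 2 overlapping interferon element cores began at -20 and -14 from the start, and the kB match at -56. The interferon-gamma activated site was in none of the 8 windows and in 7.66% of all. The cyclic AMP element letters TGACG were in 6 windows and 24.6% of all, and the NF-Y letters CCAAT in 5 and 34.6% of all. TAP1 and PSMB9 face away from each other with 487 bases between their first transcribed bases. The PSMB9 window held none of the interferon and kB motifs, although its upstream end overlaps that of TAP1 by 13 bases. A match to such letters is not evidence that a factor binds there. A missing match does not show that an element is absent, since sites that differ in a fixed letter were not counted. TAP1 and PSMB8 have 2 starts in the table, of which the first listed was used.

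The labelled cell type was checked first. The plasma cell list held 10 markers, of which SDC1, IRF4, XBP1 and 4 more, 7 in all, were present on each array, while JCHAIN and CD27 were detected on none. Of 7 B cell markers none was detected on all arrays and PAX5, BLK and EBF1 on none. Of 10 T and NK cell markers 8 were detected on no array, among them CD3D, CD3E and NKG7. Of 10 myeloid markers LYZ and CD68 were detected on all arrays, and the summed intensity of the list was 2108 to 2219 with vehicle and 2341 to 2434 with 3-AP. CD79B, a B cell receptor subunit detected on 3 arrays by its brightest kept probe, had a log2 fold change with 3-AP of 1.42 ± 0.17 (SE, limma adjusted p = 0.0548), and 0.48 in the deposited table. The summed plasma cell markers were 15714 to 18267 with vehicle and 17878 to 19813 with 3-AP. Of the 8 tested 4 passed the F test between lines, 2 higher and 2 lower in BC1. Over all features 20.3% passed it, 9.03% with BC1 higher. BC1 minus the others was 1.68 log2 units for CD38 (limma F test adjusted p = 0.0273) and -0.99 for TNFRSF17 (0.0175). The part of these markers in the results on class I genes was not tested. Because these are bulk samples, fewer cells of a type and less RNA per cell cannot be told apart.

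The first comparison asked whether the class I genes differed between 3-AP and vehicle within the lines. None of the 9 passed limma's paired test after Benjamini-Hochberg adjustment over all features at 0.05, where 0.342% of all features passed, 0.246% higher and 0.0957% lower. In 7 of the 9 genes, the heavy chains, B2M, TAP1, TAP2 and TAPBP, the 3-AP array was above the vehicle array in all 3 lines, which held for 24.3% of all features. The exceptions were both immunoproteasome genes, PSMB8 and PSMB9, whose fold changes differed in sign between the lines. The median log2 fold change over the 9 genes was 0.27, beside -0.01 over all features. By line the median of the 9 was 0.22 in BCP1, 0.22 in BCBL1 and 0.44 in BC1. At a raw p under 0.05 there were 3 of the 9, HLA-B, HLA-E and TAPBP, all with higher values on 3-AP arrays, beside 24% of all features in either direction and 11.8% on that side.

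Levels below are log2 intensities after background subtraction and quantile normalization across the arrays. They are set against each other only within a probe. Each BCP1 array entered with detection p-values borrowed by rank from the other arrays, which affects its background step.

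HLA-E encodes a nonclassical heavy chain that presents leader peptides of other class I molecules to NK cell receptors. Its log2 level with vehicle and with 3-AP was 10.27 and 10.65 in BCP1, 10.57 and 11.13 in BCBL1, and 11.80 and 12.52 in BC1. Each 3-AP value was above its own vehicle value, while the groups overlapped, since the BC1 vehicle array was above both other 3-AP arrays. The log2 fold change was 0.56 ± 0.13 (SE, n = 3 pairs, 95% interval 0.22 to 0.89, limma adjusted p = 0.110), a fold of 1.47. It did not pass here, but passed in 4 of 14 alternatives to the processing. In the processed table as deposited its limma adjusted p was 0.0232, but there 1149 features passed, against 50 here.

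HLA-B encodes a classical heavy chain. Its log2 level with vehicle and with 3-AP was 11.66 and 12.06 in BCP1, 11.73 and 12.26 in BCBL1, and 14.13 and 14.43 in BC1. The step between agents was similar in size in the 3 lines and small beside the gap between BC1 and the others. The log2 fold change was 0.41 ± 0.12 (SE, 95% interval 0.10 to 0.72, limma adjusted p = 0.150). It passed in 3 of 14 alternatives, among them the deposited table (limma adjusted p = 0.0425), where many more features passed.

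HLA-C encodes a classical heavy chain read by T cells and by killer cell immunoglobulin-like receptors. It had levels of 8.20 and 8.25 in BCP1, 8.36 and 8.50 in BCBL1, and 8.95 and 9.51 in BC1. The steps were 0.05, 0.14 and 0.56, the largest in BC1. The mean log2 fold change was 0.25 ± 0.15 (SE, 95% interval -0.14 to 0.63, limma adjusted p = 0.366), and it was 0.094 without BC1 (replicate 3).

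B2M, the light chain shared by all class I molecules, had levels of 13.89 and 14.28 in BCP1, 13.95 and 14.17 in BCBL1, and 14.33 and 14.44 in BC1. The step was largest in BCP1 and smallest in BC1, the reverse of the order for HLA-C. The mean was 0.24 ± 0.13 (SE, 95% interval -0.08 to 0.56, limma adjusted p = 0.312). The signal of this gene lay near the top of the scale: its other probe read 23449 and 25846 in BC1 in the deposited table, where the highest signals of these 2 arrays were 27975 and 26964, so differences between high B2M levels can be compressed.

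TAP1 had the largest single step of the 9 genes. Its log2 level was 10.67 with vehicle and 10.90 with 3-AP in BCP1, 10.85 and 11.12 in BCBL1, and 12.31 and 13.37 in BC1. In the deposited intensities the BC1 signal was 5190 with vehicle and 10694 with 3-AP, a fold of 2.06, against folds of 1.14 in BCP1 and 1.19 in BCBL1. The mean log2 fold change of 0.52 ± 0.20 (SE, 95% interval -0.00083 to 1.04, limma adjusted p = 0.209) therefore rested largely on BC1, and it was 0.25 without that line (replicate 3).

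TAP2, the second subunit of the transporter, had levels of 9.29 and 9.45 in BCP1, 9.23 and 9.44 in BCBL1, and 9.73 and 10.17 in BC1, with a mean log2 fold change of 0.27 ± 0.13 (SE, limma adjusted p = 0.264). It was 0.058 when the mean of all kept probes stood for the gene (limma adjusted p = 0.797). TAPBP, which encodes tapasin, had levels of 7.87 and 8.25 in BCP1, 8.05 and 8.44 in BCBL1, and 10.95 and 11.42 in BC1. Its step was the most even of the 9 genes, with an SD of 0.05 log2 units between lines around a mean of 0.41 ± 0.12 (limma SE, adjusted p = 0.139).

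PSMB8 encodes the beta5i and PSMB9 the beta1i subunit of the immunoproteasome. PSMB8 had levels of 10.51 and 10.47 in BCP1, 10.64 and 10.78 in BCBL1, and 11.14 and 10.95 in BC1, with a mean log2 fold change of -0.03 ± 0.13 (SE, 95% interval -0.36 to 0.30, limma adjusted p = 0.909). PSMB9 had levels of 7.32 and 7.43 in BCP1, 7.64 and 7.39 in BCBL1, and 10.20 and 10.21 in BC1, with a mean of -0.04 ± 0.13 (SE, 95% interval -0.38 to 0.30, limma adjusted p = 0.868). A missed threshold does not show that they did not change.

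**Figure D1:**
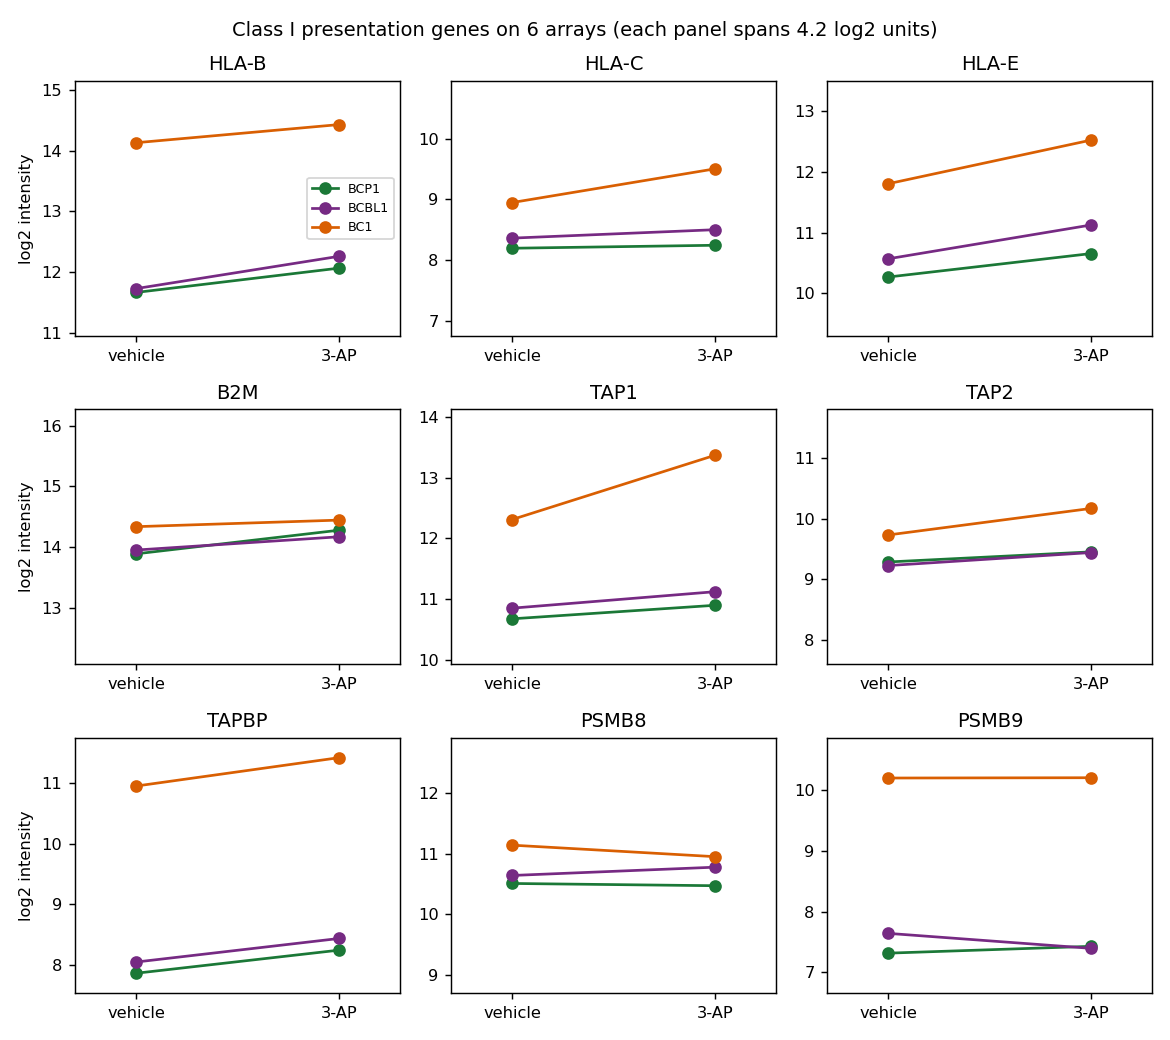
Log2 intensity (y axis, background-subtracted and quantile-normalized) of each of the 9 genes with vehicle and 3-AP (x axis), 1 line per cell line, with 1 array per point and panels that all span the same range. TAP1 in BC1 goes from 12.31 to 13.37, while PSMB9 stays at 10.20 and 10.21 in the same line.

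Genes that lie beside each other in the MHC class II region were set against each other within lines. The log2 fold change of TAP1 exceeded that of PSMB9, which is transcribed in the opposite direction from the same stretch of DNA, by 0.11 in BCP1, 0.52 in BCBL1 and 1.06 in BC1. That of TAP2 exceeded that of PSMB8 by 0.20, 0.08 and 0.63. By the probes that stand for these genes, the transporter gene had the larger value in all 3 lines in both pairs. For TAP2 this rests on the probe: its dimmer kept probe had -0.15, -0.21 and -0.11, below PSMB8 in BCP1 and BCBL1 and above it in BC1. An exact sign-flip test over 3 lines, two-sided, gave p = 0.25 for each of the 2 pairs, also after Benjamini-Hochberg adjustment, and cannot give less with 3 lines.

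**Figure D2:**
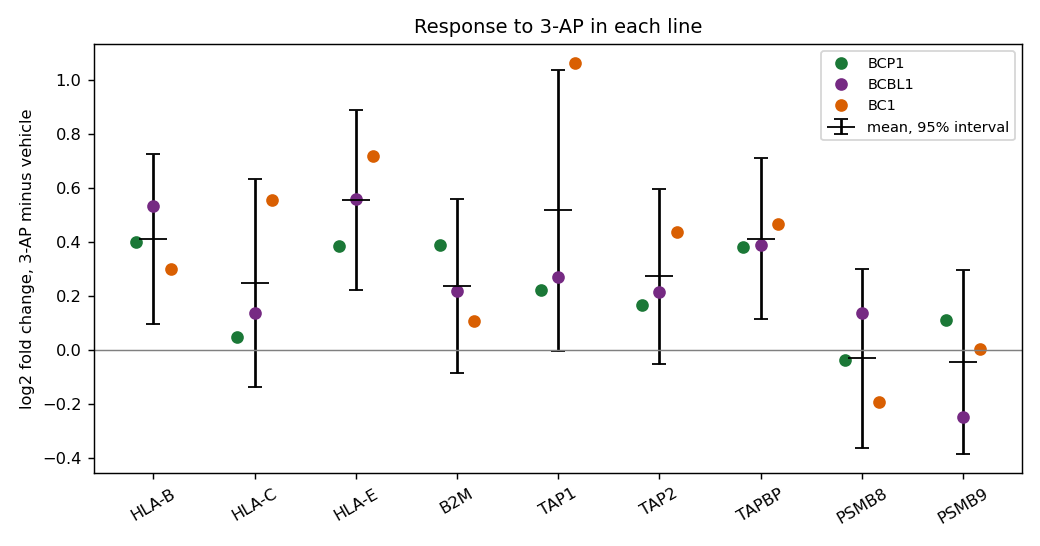
Log2 fold change of 3-AP over vehicle (y axis) for each gene (x axis), with a coloured point per line and a black bar for the mean with its 95% interval from limma. The intervals of HLA-B, HLA-E and TAPBP lie above 0, and those of PSMB8 and PSMB9 are centred near 0.

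The second comparison asked whether the response in BC1 differed from that in the other lines. It was fitted on the 3 within-line differences and has 1 residual degree of freedom, the gap between BCP1 and BCBL1. BC1 was singled out because earlier results of these data set it apart. None of the 9 genes passed, and neither did any of the 14626 features (0% passed, and 17.8% had a raw p under 0.05). TAP1 came nearest. By limma, its response in BC1 exceeded the mean of the other lines by 0.81 ± 0.19 log2 units (SE, adjusted p = 0.232). This call depended on the processing. TAP1 passed in 3 of 8 alternatives, in each of which many other features passed too, while its difference stayed at 0.81 to 0.82. With BC1 as 1 difference, such a call does not measure how much the response varies within a line. HLA-C followed with 0.46 ± 0.20 (limma adjusted p = 0.323). For HLA-B, B2M and PSMB8 the difference was negative, at -0.17, -0.20 and -0.24, with limma adjusted p-values of 0.689, 0.648 and 0.578.

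The third comparison asked how the level of each gene differed between lines, over the vehicle and 3-AP arrays of each. Its error term was the spread of the 3-AP response between lines. The spread between cultures of the same line and agent was not measured. The p-values and SEs for differences in level between lines, here and elsewhere, therefore do not weigh a gap against variation between cultures. BC1 had the highest mean level of all 9 genes. Of these 6 passed the moderated F test over all features, HLA-B, HLA-C, HLA-E, TAP1, TAPBP and PSMB9, each with BC1 above the others, beside 20.3% of all features and 9.03% on that side. The order of size was TAPBP, PSMB9, HLA-B, TAP1, HLA-E and HLA-C. HLA-B came before PSMB9 in the deposited table (2.29 against 2.12 log2 units), with quantile normalization alone (2.32 against 2.14) and with the mean of all kept probes (2.35 against 2.31). B2M, TAP2 and PSMB8 did not pass (limma F test adjusted p = 0.277, 0.0689 and 0.124).

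Tapasin showed the largest gap. TAPBP had a mean log2 level of 11.18 in BC1, 8.24 in BCBL1 and 8.06 in BCP1, so that BC1 was 8.19-fold above the mean of the others (6.02-fold in the deposited table, limma F test adjusted p = 0.000420). The deposited intensities were 2127 and 2827 in BC1 and lay between 361 and 460 on the other 4 arrays, with no overlap. PSMB9 was 6.77-fold higher (4.36-fold in the deposited table, limma F test adjusted p = 0.000855), with mean levels of 10.20, 7.52 and 7.37 in BC1, BCBL1 and BCP1. PSMB8, the other immunoproteasome gene, was at 11.04, 10.71 and 10.49, a gap of 1.36-fold.

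HLA-B was 5.10-fold higher in BC1 (limma F test adjusted p = 0.00110), with mean levels of 14.28, 11.99 and 11.86. TAP1 was 3.88-fold higher (adjusted p = 0.00937), with 12.84, 10.99 and 10.79, and its partner TAP2 1.51-fold, with 9.95, 9.33 and 9.37. HLA-E was 2.85-fold higher (limma F test adjusted p = 0.00492), with 12.16, 10.85 and 10.46, and HLA-C 1.87-fold (adjusted p = 0.0352), with 9.23, 8.43 and 8.22. The HLA-C call was lost without BCP1 (replicate 1, limma adjusted p = 0.0578), with no filter on dim probes (0.0574) and with the non-normalized signals of BCBL1 and BC1 (0.0504). B2M, at 14.39, 14.06 and 14.08, was 1.25-fold higher by this probe, which reads close to the top of the scale. TAP2 passed in 6 of 11 alternatives to the processing, PSMB8 in 3 and B2M in 2.

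BCP1 and BCBL1 could not be told apart in any of the 9 genes. Their differences, BCBL1 minus BCP1, lay between -0.04 for TAP2 and 0.39 ± 0.16 (SE) for HLA-E, and none passed (the lowest limma adjusted p was 0.765). Over all features 0% passed and 6.76% had a raw p under 0.05. All calls between lines thus rest on BC1, and without it (replicate 3) there were 0 of 9, and 0 of all features. The heavy chain genes are close copies that differ between people, and which alleles these lines carry was not given in the sources used here. How well a heavy chain probe matches the allele of a line and how much transcript the line holds therefore cannot be told apart.

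**Figure D3:**
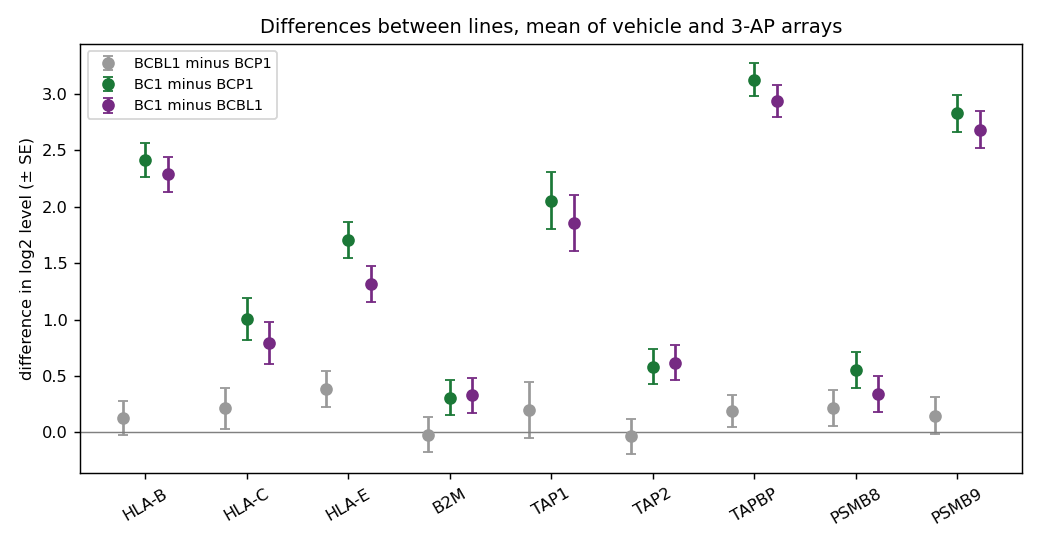
Difference in log2 level between lines (y axis) for each gene (x axis), each point the mean of the vehicle and 3-AP arrays with its SE from limma. BC1 exceeds both other lines by 2.94 and 3.13 for TAPBP and by 0.33 and 0.31 for B2M, and the grey points for BCBL1 minus BCP1 lie between -0.04 and 0.39.

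Across the 6 arrays the 9 genes ran closely together, as a description of arrays that share their lines. The mean of the centred log2 levels was -0.71 and -0.48 in BCP1, -0.56 and -0.31 in BCBL1, and 0.83 and 1.22 in BC1, with vehicle and 3-AP. The pair with the highest Pearson correlation was HLA-B with TAPBP (0.998 over 6 arrays), and the lowest was B2M with PSMB8 (0.633). The genes outside the set whose profile was most like the mean of the 9, among 4385 that ranged over at least 1 log2 unit, were CSNK1E, KLC1, NFKB2, C6orf58 and FAS, with correlations from 0.996 to 0.999 over 6 arrays. All 5 were high in BC1 and had positive mean log2 fold changes with 3-AP, from 0.15 for KLC1 to 0.59 for C6orf58. The search favoured both traits, since the mean profile of the 9 was itself high in BC1 and higher with 3-AP in each line. Such correlations mostly describe the gap between BC1 and the other lines.

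Where a gene had several probes, the probes did not always move alike. They are compared here in the deposited table. Of the 18 probes 14 passed the detection filter. Both TAP2 probes were detected on all 6 arrays. The brighter, annotated to NM_000544, had log2 values of 0.15 and 0.18 in BCP1 and BCBL1 and 0.38 in BC1, and the dimmer, annotated to NM_018833, had -0.05, -0.08 and -0.05. These accessions stand for different transcripts of TAP2, so the 3-AP values given for TAP2 hold for the brighter probe.

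For B2M both probes were positive in all lines, at 0.40, 0.27 and 0.09 for the one that stands for the gene and 0.31, 0.46 and 0.14 for the other. After background subtraction and quantile normalization, not in the deposited table, BC1 lay 0.81 log2 units above BCP1 by the second probe and 0.31 by the first. The second stood for the gene when these became the 2 lines compared. Of 4 PSMB8 probes 3 passed the filter, and all 3 were lower with 3-AP in BC1, by folds of 0.849, 0.737 and 0.892, and slightly higher in BCBL1, by folds of 1.08, 1.02 and 1.08. In BCP1 they differed in sign, with folds of 1.01, 0.833 and 0.976. The fourth was detected on 2 arrays and had positive values in all lines. The dimmer PSMB9 probe read 205 with vehicle and 161 with 3-AP in BCP1, a fold of 0.785, against 1.04 for the brighter one.

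Both further TAPBP probes, annotated to other transcripts, were detected on 1 array each, BC1 with 3-AP, at detection p-values of 0.00779 and 0.0273. With vehicle in BC1 these were 0.104 and 0.370. The second HLA-C probe was detected on none. For these probes no change can be read on the other arrays.

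**Figure D4:**
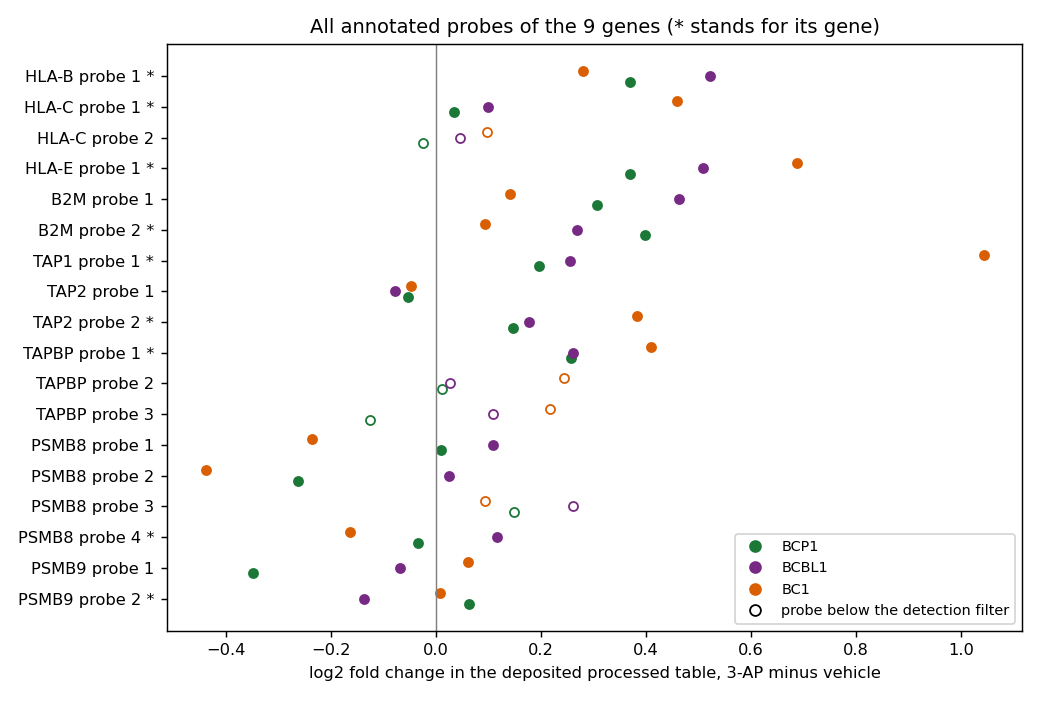
Log2 fold change of 3-AP over vehicle in the deposited processed table (x axis) for all 18 probes (y axis), with a point per line, filled for probes that passed the detection filter. Both B2M probes lie to the right of 0 in all lines, while the TAP2 probes lie on either side of it.

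Other genes of the pathway were counted from lists. In these lists no gene passed over all features, beside the 0.342% that passed among all. Of the other class I heavy chains and relatives, 15 of 18 were on the array and 6 were tested. All 6 had positive mean log2 fold changes, with a median of 0.57, where 48.8% of all features were positive. MR1, which presents microbial vitamin metabolites, had 1.05 ± 0.15 (SE, limma adjusted p = 0.0689), with 0.91, 0.87 and 1.36 in BCP1, BCBL1 and BC1. HLA-F had 0.68 ± 0.13 (limma adjusted p = 0.0906) and HLA-G 0.70 ± 0.18 (0.128). HLA-F and HLA-G were higher in BC1 by 2.80 and 3.16 log2 units (limma F test adjusted p = 0.000802 and 0.00146), and MR1 differed by -0.02 (0.992). Over all features 20.3% passed the F test, 9.03% with BC1 higher. Of the 6 tested genes of this list 4 passed, 3 higher and 1 lower in BC1. The lower one was FCGRT, the neonatal Fc receptor, at -1.99 (limma F test adjusted p = 0.00724), named after its values were seen. Probes of HLA-F and HLA-G can share signal with other class I genes, which makes single values uncertain.

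Of the genes for peptide loading and trimming 16 were tested, 10 with positive and 6 with negative values and a median of 0.14. TAPBPL, the tapasin relative TAPBPR that edits peptides, had 0.77 ± 0.14 (SE, limma adjusted p = 0.0867), with 0.55, 0.81 and 0.95 in BCP1, BCBL1 and BC1. SEC61A1, a channel subunit of the endoplasmic reticulum, had 0.44, and NPEPPS, a cytosolic aminopeptidase, -0.47 (limma adjusted p = 0.150 and 0.170). ERAP1, which trims peptides in the endoplasmic reticulum, showed the largest line difference of this list, 1.20 log2 units higher in BC1 (limma F test adjusted p = 0.0174). Of the 16 genes 4 passed the F test, 2 higher and 2 lower in BC1, beside 20.3% of all features and 9.03% with BC1 higher.

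The partners of the immunoproteasome and its activators had a median of -0.01 over 6 genes. PSMB10, the third immunoproteasome subunit, had 0.13 ± 0.12 (SE, limma adjusted p = 0.537), PSME4 0.11 and PSME3 -0.20. PSME1, a subunit of the activator PA28, was higher in BC1 by 1.70 log2 units (limma F test adjusted p = 0.00287) and had -0.02 with 3-AP. BC1 minus the others was -0.76 for PSME3 (0.0421). Of these 6 genes 3 passed the F test, 2 higher and 1 lower in BC1. Over all features 20.3% passed it, 9.03% with BC1 higher. The constitutive catalytic subunits PSMB5, PSMB6 and PSMB7, which PSMB8, PSMB9 and PSMB10 replace, had 0.03, -0.06 and 0.02 with 3-AP. PSMB5 was higher in BC1 by 1.21 log2 units (limma F test adjusted p = 0.00880), while PSMB6 and PSMB7 did not pass that test. Within lines the log2 ratio of an immunoproteasome subunit to its counterpart changed with 3-AP by -0.06 ± 0.15 (SD, n = 3) for PSMB8 over PSMB5, 0.01 ± 0.26 for PSMB9 over PSMB6 and 0.11 ± 0.07 for PSMB10 over PSMB7. The first 2 of these lie within the spread between lines, and the third was positive in all 3 lines. Of the other core subunits 9 of 10 had negative values, with a median of -0.09, and PSMA2 (-0.50), PSMA3 (-0.50) and PSMA5 (-0.15) had the smallest raw p.

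Regulators of class I transcription had a median of 0.11 over 19 genes, 11 positive and 8 negative. IRF9, a subunit of the interferon-activated factor ISGF3, had 0.75 ± 0.19 (SE, limma adjusted p = 0.125), RELB, an NF-kB subunit, 0.70 ± 0.15 (0.0976) and NFKB2, which pairs with RELB, 0.34 ± 0.12 (0.184). These 3 and IRF1, which binds the interferon element, were higher in BC1, by 2.39, 1.94, 2.02 and 2.42 log2 units (limma F test adjusted p = 0.00412, 0.00367, 0.00175 and 0.00411). In all 6 of the 19 regulators passed the F test, with BC1 the higher in each, beside 20.3% of all features and 9.03% on that side. NLRC5, the class I transactivator, was detected on 4 arrays, with 0.86 in BC1, 0.12 in BCP1 and -0.11 in BCBL1. It was named after its values were seen.

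All 9 genes of the interferon receptor and kinase list had positive mean values, from 0.01 for JAK1 and with a median of 0.29. Over all features 48.8% were positive. In 6 of the 9 the 3-AP array was above vehicle in all 3 lines, beside 24.3% of all features. TYK2, an interferon receptor kinase, had 0.41, and IFNAR2, a chain of the type I interferon receptor, 0.45. SOCS1, a feedback inhibitor of the pathway, had 0.96 ± 0.34 (SE, limma adjusted p = 0.185), with 0.52, 0.35 and 1.99 in BCP1, BCBL1 and BC1. IFNAR2 had the largest line difference of this list, and BC1 minus the others was -1.28 log2 units (limma F test adjusted p = 0.0242). Of the 9 genes 3 passed the F test, 2 higher and 1 lower in BC1, beside 20.3% of all features and 9.03% with BC1 higher. SOCS1 was detected on 3 arrays, and its mean was 0.36 in the deposited table. Genes of class I sorting and turnover had a median of 0.10 over 8 genes. SYVN1, SEL1L and DERL2, parts of the machinery that returns misfolded proteins from the endoplasmic reticulum for degradation, had 0.51, 0.46 and 0.39 (limma adjusted p = 0.129, 0.136 and 0.162). The level of SEL1L in BC1 minus that in the others was -1.26 log2 units (limma F test adjusted p = 0.00879). SEL1L was the only 1 of the 8 genes to pass that test, beside 20.3% of all features.

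**Figure D5:**
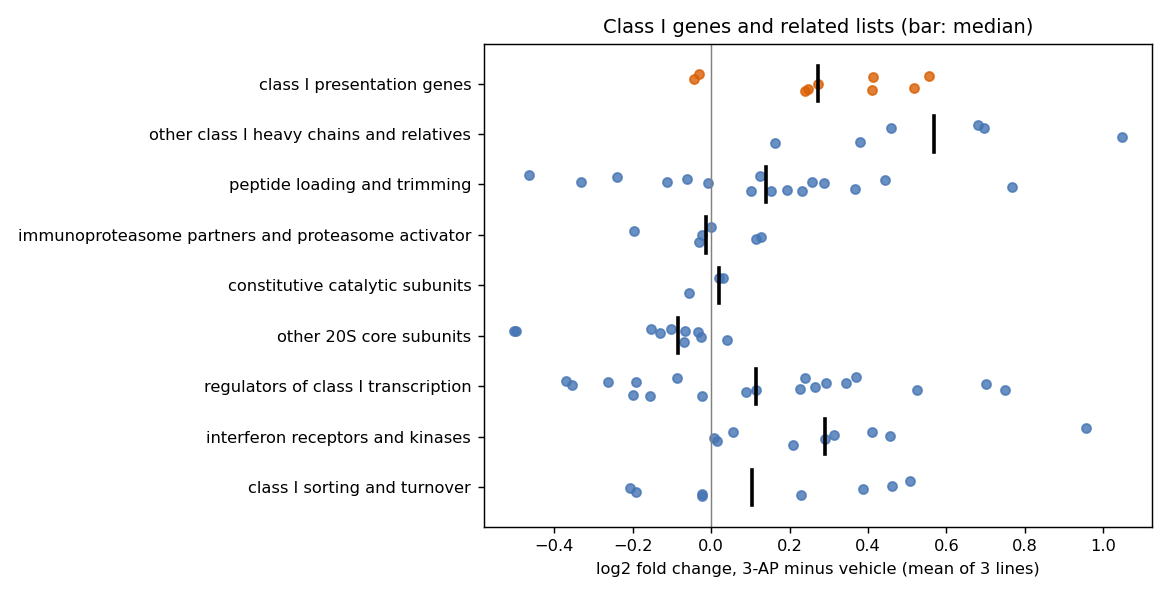
Mean log2 fold change of 3-AP over vehicle (x axis) for each tested gene of the class I set and the related lists (y axis), with 1 point per gene, spread vertically for sight, and a black bar at the median. The medians run from -0.09 for the other core subunits to 0.57 for the other class I heavy chains and relatives.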

How the data were processed

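RNA was measured on 6 Illumina bead arrays. Per the labels' protocols, TriZol was used for extraction and cRNA was labelled. How the scans were corrected and normalized is not stated in the sources. Per the file headers, the authors' non-normalized table pairs each array's intensity with a detection p-value for every probe. The deposited processed table holds 1 linear intensity per probe and array, with equal medians within each line. In the non-normalized table the signals named for BCP1 equalled the processed BCBL1 values in 100% of probes, and the deposited p-values those of BCBL1 in 99.985% and 99.989%. These 4 columns were not used.

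The processed table was therefore the starting point. Background was subtracted with limma nec (offset 16) from the detection p-values. The BCP1 arrays received, by rank, the average p-values of the other 4. Quantile normalization over 6 arrays and a log2 transform followed. Leaving out 13 probes with a signal of 0 and keeping those detected at 0.05 on at least 3 arrays left 17986. The annotation gave 1 symbol for 30113 probes, several for 8 and none for 17202. The brightest kept probe stood for a gene, which gave 14626 features, 10456 with a symbol.

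Tests used R 4.3.3 and limma 3.58.1, with cell line as a block (2 residual degrees of freedom, prior 3.20), moderated F tests between lines, and within-line differences for the response of BC1. The labels pair the samples by cell line. Deviations from the group means correlated at 0.71, 0.76 and 0.86 within BCP1, BCBL1 and BC1. The fits were tested on simulated data. The members and lists were chosen with earlier results of these data known. Genes outside the 9, except NLRC5, FCGRT and the marker genes used to check the cell type, were named by rule: those past the threshold, the 3 smallest raw p-values and the largest line difference of each list, the constitutive subunits, and the 5 profiles most like the set.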

Additional observations from a re-analysis of the deposited data

Results flagged for a closer look

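The immunoproteasome genes moved in opposite directions between lines, with 1 array against 1 in each. In the order BCP1, BCBL1, BC1, the log2 fold changes of PSMB8 with 3-AP were -0.037, 0.14 and -0.19, and those of PSMB9 were 0.11, -0.25 and 0.0050. The contrast of BC1 with the other lines did not pass for either gene (limma adjusted p = 0.578 and 0.899), and BCP1 against BCBL1 was not tested. All 6 values lie within the 95% intervals of the mean response of their gene. Those intervals were fitted to the same values, so this does not test the difference in sign between lines.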

How the results depend on the processing

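Across 14 alternatives, 7 of the 9 genes, or 8 without replicate 2, lay above vehicle in all lines compared. With the mean of all kept probes this was marginal for TAP2, whose 2 probes had 0.215 and -0.215 in BCBL1 and nearly cancelled. The median log2 fold change of the 9 kept its sign, at 0.25 to 0.35 with single lines left out. The number of features past the threshold, 50 in all, 36 higher and 14 lower, depended strongly on the processing. It was 1149 (599 higher, 550 lower) when the deposited processed values were fitted, 1194 (619, 575) with quantile normalization and no background subtraction, 21 (17, 4) with median scaling, 650 (352, 298) with an offset of 50, 10 (10, 0) with no filter on dim probes, 654 (334, 320) under the strict filter on detection (0.01 on every array), 1252 (678, 574) with a variance trend, 23 (21, 2) with the non-normalized signals of BCBL1 and BC1, and 447 (207, 240) when line was a random block. With no replicate block, that is without the pairing by line, it was 10 (10, 0). With single lines left out it was 3 to 36 (3 to 34 higher, 0 to 2 lower), on fewer arrays. Of the 9 genes, 2 passed (HLA-B and HLA-E) in the deposited table, 2 with quantile normalization alone, 2 with the variance trend and 1 (HLA-E) with the strict filter, and 0 with a line left out. The counts between lines were 0 to 2843 features and 0 to 7 of the 9 genes with a line left out, the 0 in each case without BC1, where the level of BC1 minus the others has no value. The response of BC1 differed in 2247 features in the deposited table, 1836 with quantile normalization alone, 129 with an offset of 50 and 752 with the strict filter, against 0. With single lines left out the mean log2 fold change of PSMB9 ran from -0.12 to 0.059, positive without BCBL1 (replicate 2), and that of PSMB8 from -0.11 to 0.050, positive without BC1 (replicate 3). The cause of these shifts was not tested. The counts of members were added as results after the data were seen.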
